A study of Eucalyptus grandis and Eucalyptus globulus with 10 samples.

Results

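Transcript levels in the differentiating xylem of E. grandis clone B were compared with those of E. grandis clone A. The comparison used 4 of the 10 arrays of the series, namely clone B ramets 1 and 2 and clone A ramets 1 and 2. The arrays were chosen by their labels, and no measured value entered the choice. A clone is a set of trees propagated from 1 parent tree, so that its trees, called ramets, carry the same genotype. All trees of the series were 4 years old and grown in the field, and none carried a transgene or received a treatment that the labels name. Xylem of E. globulus clones B and A (2 ramets each) supplied a further estimate of the spread between ramets. Mature leaf blades of both E. grandis clone A trees served as arrays outside the comparison. Clone letters have no meaning across the species, and each clone stands for 1 genotype only, so the comparison is between 2 genotypes and not between populations.

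Differentiating xylem lies just inside the cambium, the layer of dividing cells that thickens the stem. Its cells expand, lay down a secondary wall of cellulose, hemicellulose and lignin, and then die, and the walls they leave behind are the wood. E. grandis and E. globulus are planted for pulp, and forestry clones are chosen for growth and for the properties of that wood. The sample is a scraping of a whole tissue, so fewer cells of a type and less RNA per cell cannot be told apart in it.

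Each array gave an expression value for 21413 features, a feature being a set of probe pairs for 1 Eucalyptus sequence. An array value depends on the amount of a transcript and on how well it matches the probes, and the probe sequences were not used here. The feature IDs were not paired with genes in the sources used here, and 0 of them matched the reference gene table. The transcripts are therefore described by ID, level and pattern, no gene or pathway is named, and no sequence is shown.

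The sample names were checked before the clones were compared. The deposited value table of the whole series holds the same 10 arrays as the per-array files, but 9 of its 10 columns carry the name of another sample, and the per-array files were used throughout. As the per-array files name them, the leaf arrays correlated with clone B xylem at r = 0.641 to 0.747 and with clone A xylem at r = 0.657 to 0.729 across features. The arrays called clone B ramets 1 and 2 correlated at r = 0.976, and the ramets of clone A at r = 0.981. Across the clones the 4 pairs of arrays had r = 0.933 to 0.959, below both pairs of ramets. In E. globulus the pairs across clones had r = 0.914 to 0.981. Its ramets had r = 0.949 in clone A and 0.978 in clone B, so correlation did not set its clones apart. The leaf ramets had r = 0.906. With the names of the series table the comparison would set an array of each E. grandis clone against E. globulus arrays. The groups named E. globulus would each hold a leaf and an E. grandis xylem array, so that tissue differences enter the spread. In that fit 3 features were called, none of them among those reported here.

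The spread between genetically identical trees sets the size of difference that can be seen. Values are log2 of the deposited expression value, averaged over the 2 blocks in which each array carries every feature, so that a difference of 1 is 2-fold. Between its ramets, 200 features of clone B and 233 of clone A differed at least 2-fold, which is 0.934% and 1.09% of all. A single clone B array and a single clone A array differed at least 2-fold in 1150 to 2195 features, or 5.37% to 10.3%. The median SD of a feature between ramets was 0.188 log2 units in clone B and 0.153 in clone A. Median expression values of the 4 arrays lay between 222 and 229 units, and the 2 blocks of an array differed with an SD of 0.305 to 0.364 log2 units.

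The clones differed in 817 features. In clone B 406 of them were at a higher level than in clone A, and 411 at a lower one. These were called at an adjusted p under 0.05 by limma, in a fit with 1 mean per clone over the 8 xylem arrays. They made up 3.82% of the features tested, 1.9% higher and 1.92% lower. Of the 817, 771 also differed at least 2-fold, 377 of them higher and 394 lower in clone B, and these made up 3.6% of all features tested. The median log2 difference of the called features was 1.33 among those higher in clone B and -1.52 among those lower. At an unadjusted p under 0.05 there were 3822 features.

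The count depended on which arrays entered the fit, whether they gave a compared clone mean or only the spread. With the leaf arrays included it was 285 (1.33%), all among the 817, and with the 4 E. grandis xylem arrays alone it was 2774, which held all 817. It was 281 without clone B ramet 1, 100 without clone B ramet 2, 242 without clone A ramet 1 and 52 without clone A ramet 2, where the remaining array of that clone was assumed to vary like the other groups. The median SD between ramets was 0.156 in E. globulus clone B and 0.320 in E. globulus clone A, and without ramet 1 or ramet 2 of the more variable clone A the count was 2312.

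In the clone means, small differences leaned slightly one way and large ones the other. Over all features the median log2 difference of clone B from clone A was 0.07, with 12482 features above 0 and 8931 below. The median was 0.043 after quantile normalisation and 0.037 after scaling to equal median and interquartile range. Yet a 2-fold difference was reached by 562 features with the higher level in clone B and by 856 with the lower level there. At 4-fold these numbers were 42 and 84, at 8-fold 3 and 16, and at 16-fold 0 and 3. After quantile normalisation the 8-fold counts were 3 higher and 15 lower. After scaling of every array to the same median and interquartile range they were 3 and 17. The lean towards lower values at 2-fold was present in 3 of the 4 pairings of single arrays. It was turned round between ramet 1 of clone B and ramet 2 of clone A, where 976 features were higher and 540 lower. In that pairing the median log2 difference was -0.022, so the lean of the small differences was turned round as well.

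**Figure D1:**
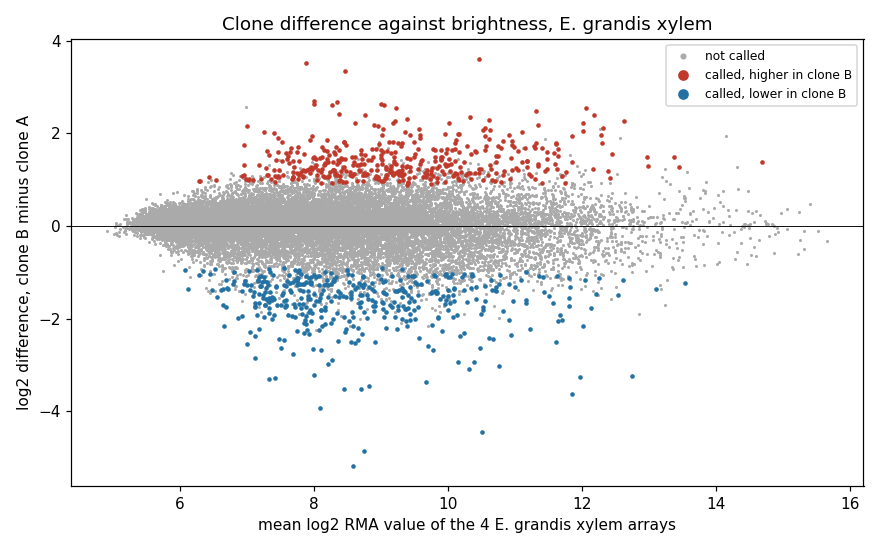
Each point is 1 of the 21413 features, with its mean log2 value over the 4 E. grandis xylem arrays on the x axis and the log2 difference of clone B from clone A on the y axis. Red points are the 406 called features higher in clone B and blue points the 411 lower, and the largest differences, beyond -4, lie on the lower side.

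Features are named for the 2 widest gaps between the clones in each direction, the gap being the smallest of the 4 differences between a clone B and a clone A array. LYPTUS00S00019549 had log2 values of 5.76 and 6.23 in clone B, ramets 1 and 2, against 11.39 and 10.94 in clone A. The clone B arrays were near the bottom of the scale and the clone A arrays far above it, with a gap of 4.71. In both blocks the pattern was the same, at 5.44 and 6.40 in block 1 of the clone B arrays against 11.40 and 10.86 in block 1 of the clone A arrays. Clone A leaf was bright as well, at 9.64 and 10.90, whereas the 4 E. globulus xylem arrays lay between 5.95 and 6.72. The signal was thus high in both tissues of the clone A trees and low in every xylem array of another genotype. Whether the amount of the transcript or its match to the probes differed was not tested. The log2 difference of clone B from clone A was -5.17 (SE 0.300, limma adjusted p 9.71e-05). No background level was set for these arrays, so differences from such dim values, here and for other features, hold on the scale of the deposited values only.

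LYPTUS00S00021177 had log2 values of 6.18 and 6.46 in clone B against 11.44 and 10.91 in clone A. The groups were separated by a gap of 4.45. Clone A leaf was at 11.02 and 11.99, in the range of clone A xylem and above. In E. globulus the feature was low on 3 arrays, at 6.72 in clone B ramet 1 and at 5.95 and 6.66 in clone A, and high on clone B ramet 2, at 9.29. The ramets of E. globulus clone B therefore differed by more than 2 log2 units although they share a genotype. The log2 difference between the E. grandis clones was -4.85 (SE 0.629, limma adjusted p 0.00376), and the call was lost without clone A ramet 2 (adjusted p 0.0528).

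In the other direction, LYPTUS00S00008756 had log2 values of 12.20 and 12.33 in clone B against 9.08 and 8.25 in clone A. Both clones were above the array medians, which lay between 7.79 and 7.84, so neither was near the bottom of the scale. The ramets of clone B agreed closely, with a mean of 12.27 ± 0.09, against 8.67 ± 0.59 in clone A (SD, n = 2 each). All E. globulus arrays lay between the E. grandis clones, at 10.20 to 10.79, and clone A leaf was lowest, at 7.70 and 7.18. The log2 difference was 3.60 (SE 0.305, limma adjusted p 0.000626).

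LYPTUS00S00017965 had log2 values of 9.82 and 9.47 in clone B against 5.84 and 6.40 in clone A. Clone A leaf was also low, at 6.16 and 5.44. The E. globulus arrays were at 7.31 and 6.25 in clone B and at 7.92 and 6.36 in clone A, all below E. grandis clone B. High signal was thus found in E. grandis clone B among the 5 groups of the series. The log2 difference was 3.52 (SE 0.483, limma adjusted p 0.00469), and the call was lost without clone A ramet 2 (adjusted p 0.0561).

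**Figure D2:**
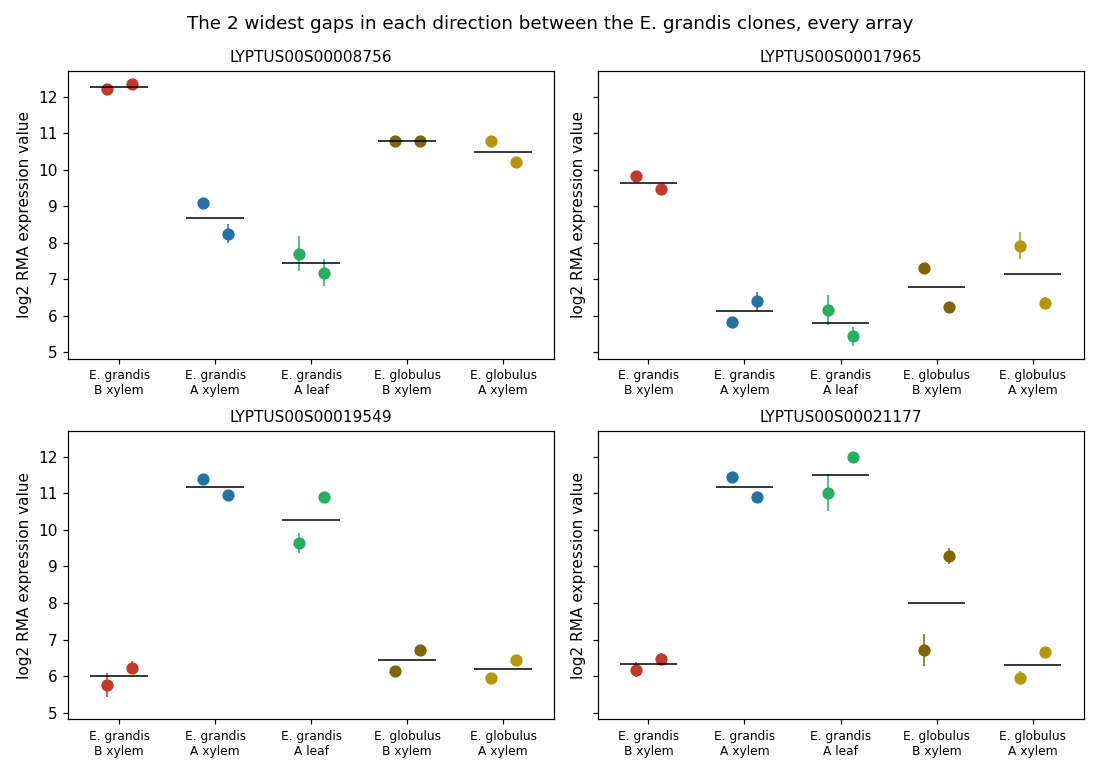
Log2 RMA expression values of the features with the 2 widest gaps in each direction, in 5 groups of 2 arrays each. Points are arrays (ramet 1 left, ramet 2 right), vertical lines span the 2 blocks of an array, and horizontal lines are group means. The upper features are higher in E. grandis clone B and the lower ones lower, and clone A leaf sits on the side of clone A xylem in all 4.

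Features of slightly narrower gap followed different patterns. The feature ranked 3 by gap among those higher in clone B was at 9.99 and 10.27 in clone B and at 6.95 and 6.61 in clone A. E. globulus stood at the level of E. grandis clone B, from 9.66 to 10.40 on its 4 arrays, and clone A leaf was low at 6.30 and 6.80. The feature ranked 5 was bright in both clones, at 12.46 and 12.66 in clone B and 10.11 and 10.04 in clone A. It was dim throughout E. globulus xylem, at 5.71 to 6.54. Among features lower in clone B, that ranked 3 was at 8.19 and 8.38 in clone B and at 12.63 and 12.82 in clone A. Its E. globulus values, 7.32 to 8.75, were at the level of clone B, and clone A leaf was intermediate at 10.57 and 11.07. That ranked 4 was at 6.22 and 6.03 in clone B, against 10.31 and 9.78 in clone A. Clone A leaf was at 6.28 and 5.64, so that here leaf was as low as clone B xylem.

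Complete separation of the 4 arrays was common, and large gaps were rare. The arrays of the clones did not overlap for 10661 features (49.8%), 28.4% higher and 21.4% lower in clone B. Separation alone therefore marks no feature out. Every clone B array was at least 2-fold above every clone A array for 211 features (0.985%) and at least 2-fold below for 328 (1.53%), and 201 and 274 of these were called. For 13 features in the higher direction and 41 in the lower the gap was at least 4-fold, and for 3 and 6 at least 8-fold, all of them called. The gap and the tested difference come from the same 4 arrays, so a wide gap favours a call. Over all features the share called was 3.82%.

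The clone difference was then measured on arrays that had not chosen the features. Each pair held 1 array per clone, and the pairs shared no array. Of the features at least 4-fold higher in clone B between the ramets numbered 1, all 25 were at least 2-fold higher between the ramets numbered 2. Of the 94 at least 4-fold lower between ramets 1, 87 were at least 2-fold lower between ramets 2, with a median of 2.08 log2 units in that direction. Between ramets 2, 4.12% of all features had a 2-fold higher level in clone B and 6.13% a 2-fold lower one. Chosen on ramets 2, 80 of 106 features higher in clone B and 127 of 149 lower reached 2-fold between ramets 1, against 2.14% and 3.23% of all features.

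The array numbers fall in 2 ranges, cut at their widest gap and called here the earlier and the later series. What the ranges stand for is not given in the sources used here. Each series held 1 array of each E. grandis clone, which gives a second way to pair the ramets. All E. globulus xylem arrays were in the earlier series and both leaf arrays in the later one. Of the features at least 4-fold apart within the earlier series, 83 of 92 higher and 59 of 59 lower in clone B differed at least 2-fold the same way within the later one. Chosen on the later series, 27 of 27 higher and 152 of 219 lower did so within the earlier one. Over all features 2.41% were higher and 7.36% lower by 2-fold within the later series, and 4.56% and 2.52% within the earlier one. Across all features the differences of the 2 disjoint pairs had r = 0.688 with equal ramet numbers and 0.551 within array series. In E. globulus r was 0.517 with equal ramet numbers and -0.03 with the numbers crossed. Features on one array are not independent, so these values describe the arrays only. The difference of LYPTUS00S00019549 was -5.18 in the earlier and -5.16 in the later series, and that of LYPTUS00S00008756 was 3.95 in the earlier and 3.25 in the later. With the series as a block in the fit, 382 features were called, 379 of them among the 817.

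**Figure D3:**
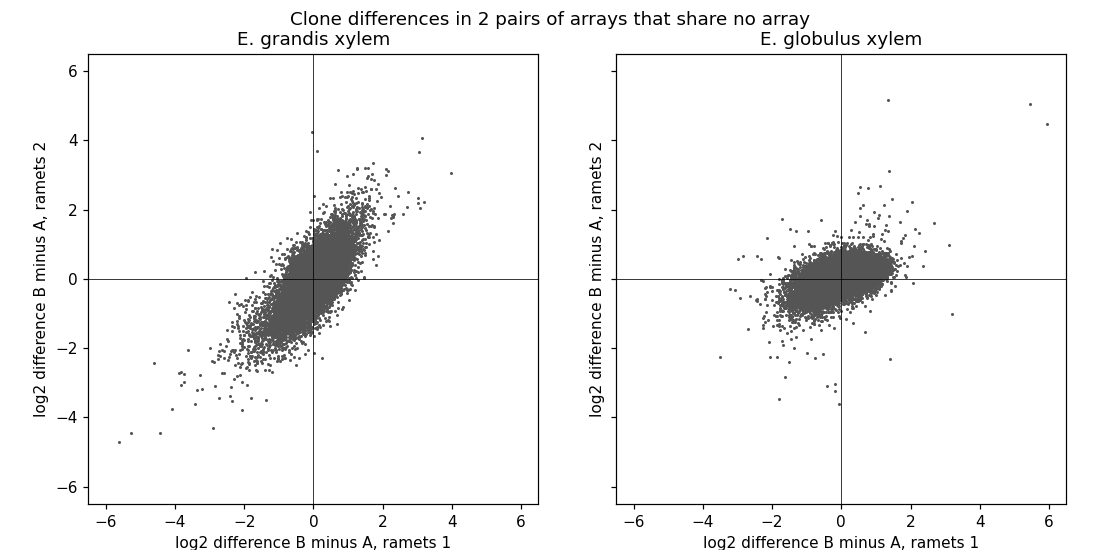
Clone B minus clone A in log2 units, between ramets numbered 1 (x axis) and between ramets numbered 2 (y axis), 1 point per feature, for E. grandis (left) and E. globulus (right). The pairs on the 2 axes share no array. The axes correlate in both species, with r = 0.688 in E. grandis and 0.517 in E. globulus, where 51 features (x axis) and 27 (y axis) differ at least 4-fold.

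The same fit applied to the E. globulus clones called 5 features, 0.0234% of those tested, with 2141 at an unadjusted p under 0.05. Clone means differed at least 2-fold in 1418 features (6.62%) between the E. grandis clones and in 346 (1.62%) between the E. globulus clones, and at least 8-fold in 19 and 3. Every clone B array was at least 2-fold from every clone A array in E. globulus for 16 features in the higher direction (0.0747%) and 25 in the lower (0.117%), fewer than the 211 and 328 of E. grandis. Between ramets, 281 features of E. globulus clone B and 1859 of E. globulus clone A differed at least 2-fold, so that the ramets of clone A were the less alike. These counts come from a fit without the ramet number, and both species had more features called with it as a block. The E. globulus count was 14 without ramet 1 of E. globulus clone B, 3953 without ramet 2 of E. globulus clone A, and 2 without either ramet of E. grandis clone A. Whether the clones of one species lie further apart than those of the other was not tested. Of the 5 features called in E. globulus, 2 were also called in E. grandis, where 3.82% of all features were called. The same estimate of the spread served both comparisons, so a feature of small spread was favoured in both. Clone letters are not shared between the species, so the signs of the clone differences were not compared.

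Called features were unevenly spread over brightness. All features were put into 5 classes of equal size by their mean log2 value over the 8 xylem arrays. The share called was 0.537% in the dimmest class, then 2.57%, 4.06% and 5.42%, and 6.49% in the brightest. Features lower in clone B outnumbered those higher in the dimmest class (5 higher, 18 lower), the next (14 and 96) and the middle one (66 and 108). In the brighter classes the balance was turned, with 136 higher and 96 lower in class 4 and 185 higher and 93 lower in the brightest. The median absolute difference of the clones, over all features of a class, was 0.148 log2 units in the dimmest and 0.351 in the brightest. The median absolute difference between ramets was 0.202 in the dimmest class and 0.315 in the brightest. With a trended and robust variance prior, which lets the spread follow brightness, 404 features were higher and 534 lower in clone B.

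**Figure D4:**
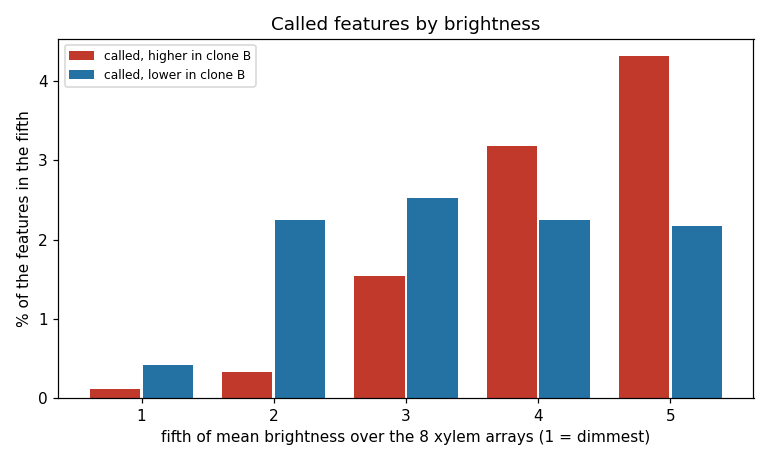
Percentage of features called in each of 5 equal classes of mean brightness over the 8 xylem arrays, split into those higher (red) and lower (blue) in E. grandis clone B. Bars start at 0. The red bars grow with brightness to the brightest class, which holds 185 called features higher in clone B, and the blue bars are nearly level from class 2 on.

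Few of the differences were from bright to dim. A feature was taken as dim in a clone when both arrays were under their lower quartile (6.62 to 6.73 log2 units), and as bright when both were over their median. By this measure 25 features were dim in clone B and bright in clone A, and 5 were dim in clone A and bright in clone B, 0.117% and 0.0234% of all features. The 25 had log2 differences from -5.17 to -1.53 with a median of -2.29, and the 5 had differences from 1.90 to 3.52. The limma fit called 24 of the 25 and all of the 5, where the levels that chose them are the levels tested. On arrays outside the choice, 14 of the 25 were dim on all 4 E. globulus arrays and 2 were bright on all 4, against 18.4% and 41.4% of all features. In clone A leaf 10 of the 25 were dim and 5 bright on both arrays, against 19.1% and 43.2% of all features. Levels in clone B xylem correlated across features with E. globulus xylem (r = 0.898 to 0.954) and with leaf (r = 0.641 to 0.747). A choice of features dim in clone B therefore favours features dim on those arrays. The shares among all features dim in clone B were not taken. In E. globulus 0 features were dim in clone B and bright in clone A, and 1 was dim in clone A and bright in clone B.

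Of the 406 called features higher in clone B, 247 (60.8%) were above the median of all 4 arrays and 16 (3.94%) were dim in clone A. Of the 411 lower in clone B, 171 (41.6%) were above the median of all 4 arrays and 61 (14.8%) were dim in clone B. Over all features 42.4% were above the median of all 4 arrays, 21.9% dim in clone B and 22.2% dim in clone A. The lower features were thus as often bright throughout as features in general. The 16 called features at least 8-fold lower in clone B had clone B means from 5.68 to 11.12 and clone A means from 8.98 to 14.36. The 3 at least 8-fold higher had clone B means from 9.64 to 12.27 and clone A means from 6.12 to 8.67.

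E. globulus xylem lay more often on the side of clone B for the called features as a whole, but not for the largest differences. Its levels took no part in the difference, while its spread entered the fit that made the calls, so called features favour agreement among its arrays. The side was read from the midpoint between the 2 clone means of a feature. Of the 406 called features higher in clone B, the E. globulus mean was on the side of clone B for 287 (70.7%), against 59.7% of all features higher in clone B. Of the 411 lower ones it was so for 323 (78.6%), against 62.0% of all lower ones. On all 4 E. globulus arrays together, 231 of the 406 and 234 of the 411 lay on the side of clone B, and 67 and 51 on that of clone A. Over all features these shares were 26.2% and 31.1% on the side of clone B and 14.8% and 13.9% on that of clone A. Array by array the share for the higher features was 66.0% to 76.4%, and on E. globulus clone B ramet 2 it was 66.0%, below the 68.0% of all features there. For the lower features it was 60.8% to 82.2% and above that of all lower features on each of the 4 arrays. Among called features at least 4-fold apart the side of clone B held 22 of 39 higher (56.4%) and 51 of 79 lower ones (64.6%), and at 8-fold 2 of 3 and 9 of 16 (56.3%). These are near the 59.7% and 62.0% of all features. Over whole arrays the ranges of r overlapped, with r between E. globulus xylem and clone B at 0.898 to 0.954 (median 0.946) and with clone A at 0.886 to 0.931 (median 0.908).

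**Figure D5:**
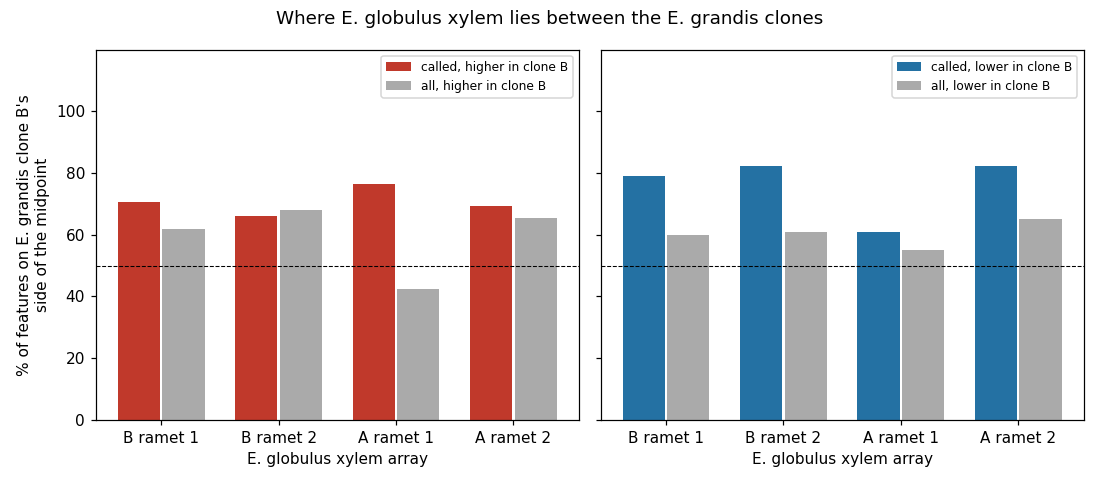
Percentage of features for which an E. globulus xylem array lay on E. grandis clone B's side of the midpoint between the clone means, for features higher (left) and lower (right) in clone B. Coloured bars are called features and grey bars all features of that direction, and the dashed line marks 50%. For features lower in clone B every array has the coloured bar above the grey one, and for higher ones clone B ramet 2 does not.

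Leaf of clone A shares its genotype and its trees with clone A xylem, but it did not lie on the side of clone A throughout. Of the 406 called features higher in clone B, leaf was on the side of clone A for 316 (77.8%), against 47.0% of all features higher in clone B. Of the 411 lower ones leaf was on that side for 149 (36.3%), against 46.1% of all lower ones. In both sets leaf was thus mostly on the lower side of the midpoint. The median leaf level was 8.25 for the higher features, where clone B xylem was at 9.87 and clone A xylem at 8.49. It was 8.21 for the lower features, where clone B xylem was at 7.64 and clone A xylem at 9.33. For larger differences the share on the side of clone A was 37 of 39 higher and 35 of 79 lower features at 4-fold, and 3 of 3 and 10 of 16 at 8-fold.

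Leaf-like and xylem-like signal was set out from features chosen without any E. grandis xylem array. A set of 315 features was at least 16-fold higher in the mean of the leaf arrays than in the mean of E. globulus xylem, and 202 were at least 16-fold lower. The leaf came from E. grandis clone A, and its arrays were of the later series and those of E. globulus of the earlier one. These sets therefore hold differences of species, genotype and array series beside those of tissue. LYPTUS00S00021177, high in leaf and xylem of clone A, fell in the leaf set, of which 63 features were bright in clone B xylem and 72 in clone A xylem. The median level of the leaf set was 6.91 and 7.11 in clone B xylem and 6.96 and 7.07 in clone A xylem, against 12.12 in leaf. Its median difference of clone B from clone A was 0.05, beside 0.07 over all features. Of the 315, 17 (5.40%) were called, 6 higher and 11 lower in clone B, against 3.82% of all features. The xylem set had medians of 12.12 and 11.80 in clone B and 12.06 and 11.68 in clone A, with a median difference of 0.05. By their medians both clones carried the xylem set at a high and the leaf set at a low level. Of the xylem set 29 of 202 (14.4%) were called, 18 higher and 11 lower, and its differences ran between the quartiles from -0.60 to 0.57, against -0.19 to 0.27 over all features. The xylem set is bright, and the share called in the brightest class of all features was 6.49%.

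Position in the numbering of the features bore little relation to the calls. Over 10 equal classes of feature number the share called ran from 3.04% to 4.67%, without a steady order. Only 5 features had fewer than 9 probe pairs.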

How the data were processed

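Each array carried the Cy3-labelled RNA of 1 sample, per the labels' protocols. The authors deposited linear intensities, given per the file headers as an expression value for each feature and block. RMA is named in the submitters' processing notes, and its version, its settings and which arrays were normalised together are not given in the sources used here. From these intensities log2 values were taken and averaged over the 2 blocks, with no further normalisation and no filter. Differences were tested with limma 3.58.1 (lmFit and eBayes) in R 4.3.3, with numpy 2.4.6, pandas 2.3.3 and the data.table package at 1.17.8. The fit had 1 mean per clone over the 8 xylem arrays, 4 residual degrees of freedom, and Benjamini-Hochberg adjustment over all 21413 features. The method was tested on simulated data. The number of arrays, 2 per clone, limits the precision. Named features are the 2 in each direction with the widest gap among those called. The design, the classes of features and the rules were chosen with earlier results of these data known, the 8-array fit because leaf is another tissue. The authors also deposited intensities for the whole series, 10000 times the block means of the per-array files (within 0.001 units), whose columns had medians from 2212800.5 to 2373949.5. Planned marker lists were not used, since no ID had a gene name.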

Additional observations from a re-analysis of the deposited data

How the results depend on the processing

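A minority of the 20 alternatives for the E. grandis clones kept the count within 1.5 times 817, and most moved it further. These were quantile normalisation (1032 features called), equal median and interquartile range (1134), brighter features alone (717) and block 1 (765). Block 2 (815), linear averaging (837) and a trended, robust prior (938) did so too. In that order they held 803, 808, 575, 652, 655, 815 and 738 of the 817. The brighter features were those above the median brightness, so the 717 were a larger share of fewer features tested. Dimmer features of the 817 could not be among them. Leaving out either ramet of E. globulus clone B also kept the count within that range. All 10 arrays gave 285, the 4 arrays alone 2774, the array series as a block 382 and the series table as named 3. Leaving out 1 xylem array gave 52 to 2312. Ramet numbers do not pair trees of different clones. The differences between ramets of clones B and A nevertheless correlated at r = 0.205, with 0.188 to 0.642 over the 6 pairs of xylem groups. The fit with a replicate block for the ramet number called 3015 features in E. grandis, holding all 817, and 312 in E. globulus. The cause of these shifts was not tested.

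For E. globulus (5 called) the count was 2 with the 4 arrays alone, 2 with the array series as a block, 9 with block 1 and 9 with the trended prior. It was 0 with the series table as named (1643 at an unadjusted p under 0.05), and 2 to 3953 without 1 array. With the series table as named the differences of LYPTUS00S00008756 (-0.26), LYPTUS00S00019549 (2.18) and LYPTUS00S00021177 (2.24) were reversed, and that of LYPTUS00S00017965 was 0.95 (limma adjusted p 0.974). Apart from that table and the losses without clone A ramet 2 given above, the named features kept direction and call wherever they were tested. Within 1 array series only a value, with no test, was taken. The dim features LYPTUS00S00017965 and LYPTUS00S00019549 were not among the brighter features. The 2-fold limit on called features (771) was added after seeing the data.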
